A study of Mus musculus with 68 samples.

Results

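The transcriptional response to ER stress was measured in xNZO, the F1 cross of a C57BL/6J (B6) mother with an NZO/H1LtJ (NZO) father. The cells were mouse embryonic fibroblasts (MEFs), which are fibroblasts grown from embryos. The 6 xNZO libraries, 3 control and 3 treated, were taken from the 68 libraries of the series by their labels. Treated cells received tunicamycin (TM) at 2 ug/ml for 4 h, and control cells received 0.1% DMSO for the same time. Each MEF line was a mix of cells of several female embryos of a single litter, so a genotype is represented by 1 mix, and the p-values below measure only the spread between its libraries. The parents were represented by 2 control and 2 TM libraries of B6 and by 2 control and 3 TM libraries of NZO, which received the same doses. The 22 libraries of the 4 other crosses with a B6 mother, named below, also received these doses and were used for comparison. Each library is an RNA-seq library of single-end reads, and between 10195690 and 29528457 reads per xNZO library were counted on genes.

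TM blocks the first step of N-linked glycosylation, so that glycoproteins misfold in the lumen of the endoplasmic reticulum (ER). Misfolded proteins are sensed by IRE1 (Ern1), PERK (Eif2ak3) and ATF6, which set off the unfolded protein response (UPR). Active ATF6 and spliced XBP1 raise ER chaperones and the machinery that degrades misfolded proteins, and PERK signaling through ATF4 raises CHOP (Ddit3) and genes of amino acid supply. In MEFs, ER stress also raises chemokine genes and other targets of NF-kB. In an F1 cross each cell holds the alleles of both parents, so the comparison of the cross with its parents asks whether the response resembles that of B6, that of NZO or neither.

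The values are reads per gene scaled by the authors to a common library size, without division by gene length, so levels are compared between libraries and not between genes. All 10 fibroblast markers were detected in all 6 libraries, although Lum, a matrix proteoglycan, was at 0.0791 to 0.569. Vim, an intermediate filament of mesenchymal cells, lay between 5042 and 6827, and Fn1, the matrix protein fibronectin, between 4459 in TM replicate 2 and 9872 in control replicate 2. The summed value of the 10 fibroblast markers lay between 16590 and 25740.

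Control replicate 3 stood apart from the other xNZO libraries. Its log2 values correlated with those of control replicates 1 and 2 at r = 0.936 and 0.943, against r = 0.991 between those 2 libraries. It held genes of brain cells that were close to 0 elsewhere. Snap25, a synaptic membrane protein, had 205.3 in control replicate 3, 0.372 and 0.237 in control replicates 1 and 2, and 0.036 to 0.175 in the TM libraries. Mbp, a myelin protein, had 159.9 in that library and between 0.699 and 2.14 in the other 5. Slc1a2, the main glutamate transporter of astrocytes, had 132.3 there and between 0.699 and 1.11 elsewhere. All 10 neuron markers listed in the tables were highest in this library, and their sum was 1176, against 17.2 to 21.9 in the other 5 xNZO libraries and 21 to 44.8 in the 22 libraries of the other crosses. All 4 oligodendrocyte markers and 4 of the 5 astrocyte markers were highest there too, with sums of 294.6 (against 11.9 to 16.7) and 493.5 (against 152.7 to 185.6). The marker lists of brain cells were chosen after these values were seen. In all, 196 genes had a value of at least 5 in control replicate 3 that was at least 10 times that of every other xNZO library. They took 1.13% of its total on genes, against at most 0.03% in another xNZO library. Of the 196, 156 were tested and none was induced or lowered below. lowered below. The part of this library in the other results was not tested, so the main counts are given with and without it. Of the other cell type markers, the 5 microglia genes listed summed to 41.7 in this library and to 18.3 to 22 in the other 5, and the 8 myeloid genes listed summed to 30.8 in this library and to 4.54 to 9.02 in the other 5, with 0 to 3 of them at 0 in a library. The 6 endothelial markers summed to 13.1 there and to 5.7 to 7.07 in the others, and the 4 epithelial markers to 45 there and to 52 to 64.8 in the others.

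**Figure D1:**
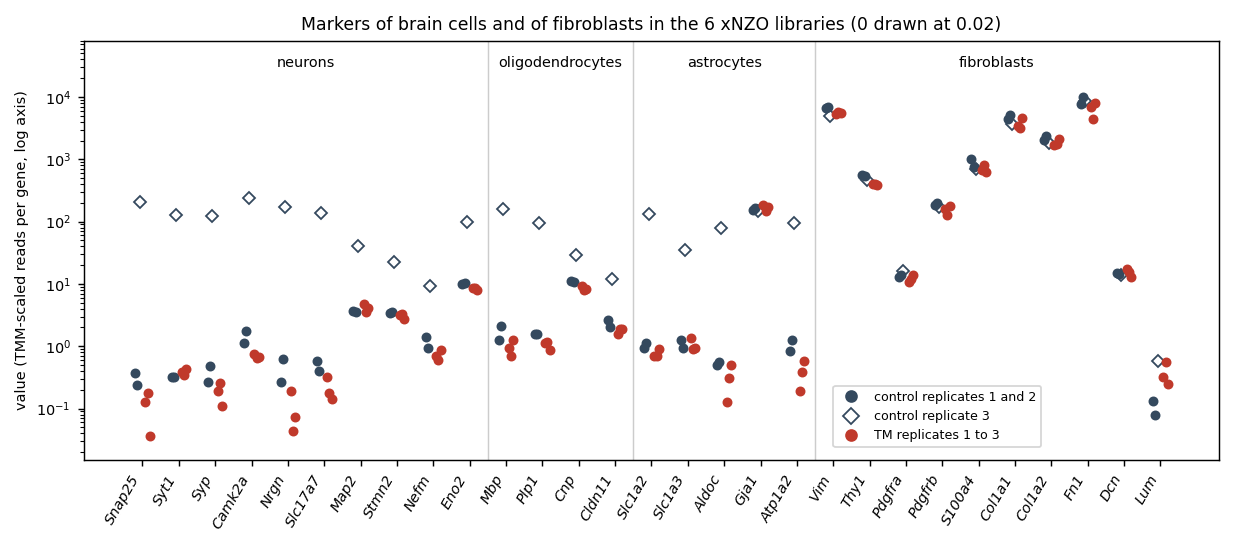
Values of markers of neurons, oligodendrocytes, astrocytes and fibroblasts (columns, 1 gene each) in the 6 xNZO libraries, as TMM-scaled reads per gene on a log axis. Open diamonds stand for control replicate 3, where Snap25 had 205.3 against at most 0.372 in the other 5 libraries, while Vim was at 5042 to 6827 in all 6.

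Of 12516 genes tested with limma on log2(value + 0.1), 180 (1.44%) were induced by TM and 19 (0.152%) were lowered, which required 1.5 fold or more in that direction and an adjusted p under 0.01. Without control replicate 3, 300 of 12441 genes (2.41%) were induced and 84 (0.675%) lowered. The smaller sets lay wholly within the larger, since all 180 and all 19 genes were called again. Of the induced genes, 25 rose by at least 4 fold, 78 by 2 to 4 fold and 77 by less than 2 fold. The median change was 1.08 (log2) among the induced genes and -0.99 among the lowered genes, and -0.036 over all genes tested. All 180 induced genes were above every control in every TM library, which held for 2048 genes tested (16.4%), and all 19 lowered genes were below, which held for 1882 genes (15%). DESeq2 on the recovered reads, with its own size factors, called 387 genes induced and 164 lowered. At an unadjusted limma p under 0.05, 1575 genes were higher with TM and 1426 lower.

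The list of ER chaperones and folding enzymes was raised throughout, as were some of the lists below. Of its 22 members, all had higher mean log2 values with TM, against 45.2% of all genes tested. Among them 15 were induced, none was lowered and the median change was 1.05 (log2). Hspa5 (ENSMUSG00000026864), the Hsp70 chaperone of the ER lumen also called BiP, had values of 667.8, 637.5 and 576.6 in the control libraries and 4908, 5461 and 4867 in the TM libraries. It rose by 3.02 ± 0.12 (log2, SE, n = 3 against 3, limma adjusted p = 1.6e-05). Sdf2l1, a partner of BiP, had 11.1, 9.42 and 9.32 in control and 101.9, 119.5 and 120.8 with TM. Its rise, 3.51 ± 0.12, was the largest of the group. Creld2, a secreted ER stress protein, rose by 3.02 ± 0.16, from 31.3 to 43.7 in the controls to 251.9 to 342.3 with TM. Dnajb9, a J protein that binds BiP, rose by 2.78 ± 0.15, from 10.8 to 13.5 to 69.2 to 94.8. For these 4 genes every TM library was above every control, as for all 180 induced genes. Control replicate 3 was the lowest control for Hspa5, Sdf2l1 and Creld2 and the highest for Dnajb9. Among the members that did not pass, P4hb, a disulfide isomerase, had 827.4 to 1041 in control and 1228 to 1292 with TM.

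ER-associated degradation removes misfolded proteins from the ER. In this list 6 of 19 members were induced and none was lowered, and the median change was 0.23 (log2). The genes that were induced include the largest rises of the whole response. Herpud1 (ENSMUSG00000031770), a membrane scaffold of the degradation complex, had 44.5, 42.3 and 39.1 in control and 938.8, 900.8 and 824.4 with TM. Its rise of 4.40 ± 0.10 (log2) had the smallest limma adjusted p of the named genes, 7.7e-07. Derl3 (ENSMUSG00000009092), a channel protein of the same complex, had 0.531, 0.3165 and 0.641 in control, or 20, 4 and 9 reads, and 14.5, 10.6 and 14.3 with TM, or 229, 242 and 396 reads. It rose by 4.50 ± 0.28. Syvn1, the ubiquitin ligase HRD1, rose by 2.14 ± 0.11 and Sel1l, its partner, by 1.69 ± 0.12. Of the 4, only Derl3 had controls near the lowest level counted. Derl1 (0.71) and Edem1 (1.11) were induced as well. The other 13 members, among them Vcp, the ATPase that pulls substrates out of the membrane, had changes of -0.21 to 0.81 and did not pass.

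The promoters of these genes are shown because several of the induced genes hold the ER stress response element (ERSE), which ATF6 and XBP1 bind with NF-Y. Windows of 300 bases, from 250 before to 50 after a gene's start, were taken from RefSeq (GRCm38.p6, which is the build of the authors' coordinates) and matched by symbol to 140 of the 180 induced genes. The ERSE was taken as CCAAT and CCACG with any 9 bases between them, and was searched on both strands. Only this reference sequence was searched, and the NZO alleles that xNZO also holds were not examined. It was found in 10 of the 175 windows of induced genes (5.71%), against 39 of all 32851 windows (0.119%). The genes were Hspa5, Hsp90b1, Calr, Pdia6, Dnajc3, Creld2, Derl3, Syvn1, Alg12 and Zfp57. A second form of the element, ATTGG and CCACG with any base between them, was found in 1.71% of the induced windows (3 windows, of Herpud1, Dnajb11 and Rbm39) and in 12 of all windows (0.0365%). Over the 12549 windows of tested genes the shares were 0.128% for the ERSE and 0.0638% for this form. The amino acid response element bound by ATF4 with C/EBP factors, TGATGNAAT, was found in 3 of the induced windows (1.71%, of Fgf21, Cdyl and Arhgef2) and in 0.965% of all and 0.43% of the windows of tested genes. The lines below give 3 promoters on their own coding strand, 5' to 3', with the matched element in capitals. It starts 65 bases before the start of Hspa5 (chr2:34771840-34772139, + strand), 156 before that of Derl3 (chr10:75893148-75893447, + strand, element on the other strand) and 52 before that of Herpud1 (chr8:94386179-94386478, + strand, second form).
Hspa5: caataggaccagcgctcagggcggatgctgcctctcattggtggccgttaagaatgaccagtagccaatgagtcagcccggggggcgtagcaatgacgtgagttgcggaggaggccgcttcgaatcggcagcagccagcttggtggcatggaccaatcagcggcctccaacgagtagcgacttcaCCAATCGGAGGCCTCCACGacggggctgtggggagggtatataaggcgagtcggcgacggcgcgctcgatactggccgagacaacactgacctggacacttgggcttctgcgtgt
Derl3: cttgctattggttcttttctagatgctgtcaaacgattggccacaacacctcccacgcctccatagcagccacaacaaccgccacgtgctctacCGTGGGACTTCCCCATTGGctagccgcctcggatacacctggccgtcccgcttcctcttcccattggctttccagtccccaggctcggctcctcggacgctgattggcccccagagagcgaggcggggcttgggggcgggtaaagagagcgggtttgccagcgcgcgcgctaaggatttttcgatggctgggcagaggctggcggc
Herpud1: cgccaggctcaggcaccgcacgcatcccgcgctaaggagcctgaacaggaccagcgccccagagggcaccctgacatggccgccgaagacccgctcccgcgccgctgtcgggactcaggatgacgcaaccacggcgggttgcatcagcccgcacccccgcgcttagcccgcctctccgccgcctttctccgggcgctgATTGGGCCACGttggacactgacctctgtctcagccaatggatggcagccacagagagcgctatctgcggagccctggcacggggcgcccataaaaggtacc

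**Figure D2:**
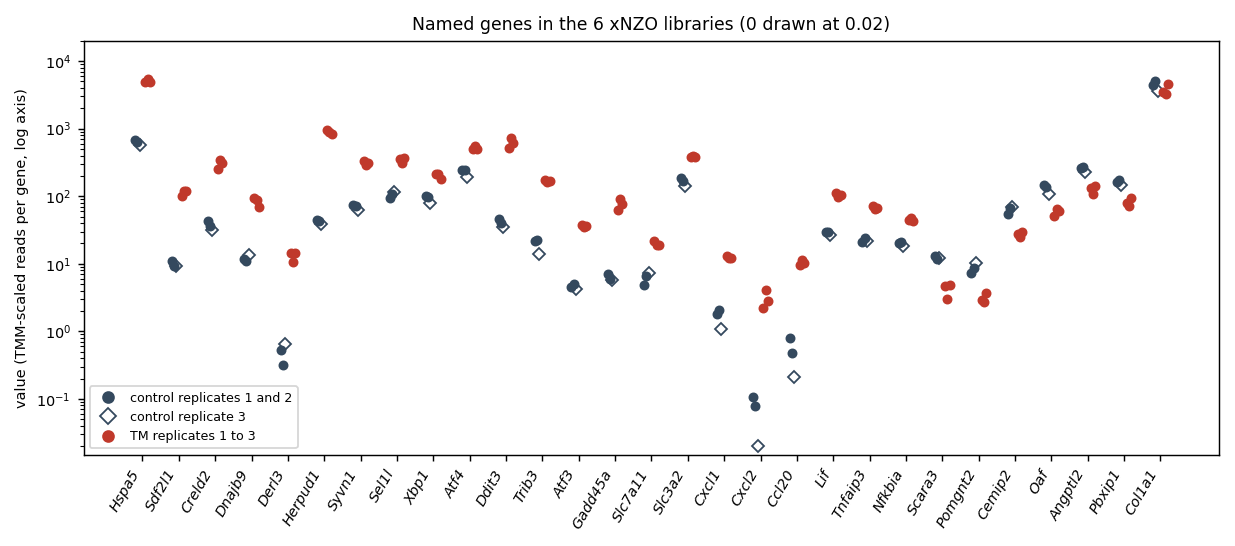
Values of 29 named genes (columns) in the 6 xNZO libraries, as TMM-scaled reads per gene on a log axis, with control replicate 3 as open diamonds. TM libraries lie above every control from Hspa5 (4867 to 5461 against 576.6 to 667.8) to Nfkbia and below every control from Scara3 to Pbxip1, and the groups overlap for Col1a1.

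In the list of 10 sensors and membrane-bound factors, Xbp1, whose mRNA is spliced by IRE1 to encode a transcription factor, was the only member induced, and none was lowered. Xbp1 had 99.8, 98.8 and 78.3 in control and 213.4, 214.4 and 178 with TM, a rise of 1.13 ± 0.13 (log2). Eif2ak3, which encodes PERK, had 17.3, 20.9 and 17.4 in control and 31.6, 29.6 and 33.3 with TM. Its groups did not overlap, and its change of 0.77 ± 0.12 did not pass with all libraries (limma adjusted p = 0.011) but did without control replicate 3. Ern1 changed by 0.33 ± 0.16 (adjusted p = 0.24) and Atf6 by 0.36 ± 0.12 (adjusted p = 0.11). For Ern1, the lowest TM library (35.4) was below the highest control (39.1), so the groups overlapped.

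The integrated stress response list, which holds ATF4 and CHOP and their targets, had 11 of 20 members induced and none lowered, with a median change of 1.13 (log2). All 20 members were higher with TM, against 45.2% of all genes tested. Atf4 itself had 244.7, 241.2 and 195.2 in control and 496.3, 545.8 and 494.1 with TM, and rose by 1.18 ± 0.12. Ddit3 (ENSMUSG00000025408), which encodes the pro-apoptotic factor CHOP, had 46.6, 40 and 35.3 in control and 509.9, 714.8 and 608.6 with TM. Its rise was 3.90 ± 0.15, and the TM libraries differed among themselves by far less than from the controls. Gadd45a, a stress sensor that acts on growth arrest, rose by 3.55 ± 0.16, from 5.84 to 7.15 in control to 61.5 to 89.4 with TM. Trib3, a pseudokinase that restrains CHOP and AKT, had 22, 22.7 and 13.9 in control and 172, 160.3 and 165.7 with TM (3.11 ± 0.18). Here control replicate 3 was the lowest control, and without it the change was 2.89. Atf3, a factor of the ATF/CREB family, rose by 2.95 ± 0.12, from 4.27 to 5.06 to 35.1 to 37.7. The 9 members that did not pass changed by 0.25 to 0.88.

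A part of the genes of amino acid supply rose. Of 16 members of amino acid synthesis and transport tested, 8 were induced, with a median change of 0.74 (log2), and of 20 cytosolic tRNA synthetases 5 were induced, with a median of 0.55. No member of either list was lowered. Slc7a11, the cystine importer, had 4.86, 6.49 and 7.4 in control and 21.6, 18.8 and 18.7 with TM (1.66 ± 0.17). Slc3a2, the heavy chain shared by several amino acid transporters, had 185, 166.2 and 142.5 in control and 376.5, 394 and 376.7 with TM (1.22 ± 0.11). Slc1a4, a carrier of neutral amino acids, rose by 1.09 ± 0.09 and Slc7a3, a carrier of cationic amino acids, by 1.02 ± 0.14. Among the synthetases, which charge tRNAs with amino acids, Cars rose by 0.90 ± 0.11, Tars by 0.83 ± 0.12, Wars by 0.78 ± 0.10 and Lars by 0.74 ± 0.10. In translocation and vesicle traffic, which moves proteins into and out of the ER, 26 of 28 members were higher with TM, against 45.2% of all genes tested. Only Spcs3, a subunit of signal peptidase, was induced (0.91 ± 0.10). Its values were 64, 61.4 and 64.6 in control and 126.6, 126.8 and 105.2 with TM.

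Some of the inflammation genes rose as well. Of 26 members tested, 10 were induced and none was lowered, and the median change was 0.89 (log2). Part of this list was taken from genes that the study singled out for their variation among founder strains, so it is not independent of the founder libraries. Cxcl1 (ENSMUSG00000029380), a chemokine that draws neutrophils, had 1.83, 2.06 and 1.07 in control and 13.2, 12.1 and 12.3 with TM. It rose by 2.90 ± 0.25 with all libraries and by 2.63 without control replicate 3, its lowest control. Cxcl2, a chemokine of the same family, had 0.106, 0.079 and 0 in control, or 4, 1 and 0 reads, and 2.22, 4.1 and 2.84 with TM, or 35, 94 and 79 reads. Its fitted rise of 4.31 ± 0.45 depends on the 0.1 added before the logarithm. Ccl20, a chemokine for lymphocytes and dendritic cells, had 30, 6 and 3 reads in control and 151, 263 and 284 reads with TM, and rose by 4.27 ± 0.37. Lif, a cytokine of the interleukin 6 family, had more reads and a tighter change, from 29.7, 29.5 and 26.8 in control to 112.2, 97.4 and 105.5 with TM (1.87 ± 0.10). All 13 members of the list of NF-kB subunits and inhibitors were higher with TM, against 45.2% of all genes tested. The median change was 0.58, and 3 members were induced. These were the inhibitors Tnfaip3 (1.603 ± 0.10) and Nfkbia (1.17 ± 0.10) and the subunit Relb (1.24 ± 0.16). Nfkb1 had 62.1, 71 and 60.2 in control and 89.4, 82.9 and 93.3 with TM, without overlap, but its change of 0.46 ± 0.10 did not pass (limma adjusted p = 0.041). Among 18 immediate early genes, 4 were induced, namely Myc (1.24 ± 0.12), Egr1 (1.05 ± 0.12), Klf4 (0.95 ± 0.13) and Klf6 (0.75 ± 0.10), and none was lowered.

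A kappaB element, taken as GGGA and TTTCC with any base between them and searched in the same way, was found in 3 of the induced windows (1.71%), against 135 of all windows (0.411%) and 0.43% of those of tested genes. The windows were those of Cxcl1, Cxcl2 and Nfkbia. The promoters of both chemokines are given because their changes in the cross are compared with those of the parents below. They are again of the reference build, and the NZO alleles were not examined. Both genes are on chromosome 5, at chr5:90890995-90891294 for Cxcl1 and chr5:90903649-90903948 for Cxcl2, each on the + strand, with the element in capitals 71 and 97 bases before the start.
Cxcl1: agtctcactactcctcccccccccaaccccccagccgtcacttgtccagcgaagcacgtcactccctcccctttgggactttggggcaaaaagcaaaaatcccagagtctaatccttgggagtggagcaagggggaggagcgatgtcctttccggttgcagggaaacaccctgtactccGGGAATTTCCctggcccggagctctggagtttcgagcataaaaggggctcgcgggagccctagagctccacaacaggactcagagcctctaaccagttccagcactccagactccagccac
Cxcl2: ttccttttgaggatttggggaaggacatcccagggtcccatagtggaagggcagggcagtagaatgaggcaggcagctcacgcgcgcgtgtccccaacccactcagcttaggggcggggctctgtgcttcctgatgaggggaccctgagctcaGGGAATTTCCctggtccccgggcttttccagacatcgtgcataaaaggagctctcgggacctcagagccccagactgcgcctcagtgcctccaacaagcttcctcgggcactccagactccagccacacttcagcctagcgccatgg

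Noncoding RNAs moved with the response. Of 8 members of the list, 5 were induced and none was lowered, with a median change of 1.32 (log2). 5430416N02Rik had 6.72, 7.6 and 5.98 in control and 18.8, 32.6 and 32.8 with TM (2.00 ± 0.23), so TM replicate 1 was the lowest of the treated libraries but above every control. Snhg12, a host gene of small nucleolar RNAs, rose by 1.82 ± 0.16, and Snhg5 and Snhg1, of the same kind, by 1.72 ± 0.16 and 1.43 ± 0.16. Of a further list of 18 genes, most of them mentioned in the paper's text, 8 were induced and none was lowered. The largest changes in it were those of Acot2, which that text does not mention, a mitochondrial acyl-CoA thioesterase, at 2.07 ± 0.14, Cpox, an enzyme of heme synthesis, at 1.79 ± 0.14, Arid5a, an RNA-binding protein, at 1.43 ± 0.15, and Zfp57, a zinc finger protein of imprinted loci, at 1.42 ± 0.11.

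Few genes were lowered, and only 1 of the 19, Scara3, belonged to a list. Scara3, a scavenger receptor whose mRNA is a reported target of decay by IRE1, had 13, 11.8 and 12.1 in control and 4.64, 2.97 and 4.82 with TM. It fell by 1.58 ± 0.20 on the log2 scale (limma adjusted p = 0.0056). The other 8 reported decay targets did not pass and changed by -0.46 to 0.55. Pomgnt2, a glycosyltransferase of the ER that builds the glycan of dystroglycan, had 7.28, 8.78 and 10.1 in control and 2.92, 2.75 and 3.71 with TM (-1.45 ± 0.19). Ucn2, a peptide hormone, had 8.66, 8.23 and 6.83 in control and 3.49, 3.06 and 2.52 with TM (-1.36 ± 0.19). Npas4, an immediate early transcription factor known from neurons, had 13, 13.9 and 12.7 in control, with no excess in control replicate 3, and 5.78, 4.28 and 5.33 with TM (-1.36 ± 0.15). Cemip2, a membrane protein linked to hyaluronan breakdown, changed by -1.21 ± 0.12, Oaf by -1.15 ± 0.14 and Retreg3, a receptor for autophagy of the ER, by -1.15 ± 0.14. Angptl2, a secreted protein of the angiopoietin-like family, changed by -1.0 ± 0.13, Pbxip1 by -0.999 ± 0.12 and Nynrin by -0.99 ± 0.14. Every TM library lay below every control for these 10 genes, which was part of the rule that named them. The other 9 lowered genes changed by -0.62 to -0.95.

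No member of sterol and fatty acid synthesis passed the test, although 21 of 24 were lower with TM, against 54.8% of all genes, and 15 were below every control in every TM library, against 15% of all genes. The median change was -0.36 (log2). Among the members lowered without control replicate 3 was Dhcr7, which encodes a reductase of cholesterol synthesis. Its change with all libraries was -0.76 ± 0.13, and it was named after its values were seen. Of 22 genes of collagens and matrix, 17 were lower, none passed, and the median was -0.27. Col1a1, the main chain of type I collagen, had 4382, 5134 and 3667 in control and 3443, 3233 and 4559 with TM. The groups overlapped and the change of -0.23 ± 0.19 did not pass (adjusted p = 0.49). No cell cycle gene (24 tested, median -0.081) and no BCL2 family gene (11 tested, median -0.0385) passed. Hmgcs1 was to be named in any case and was not analysed here.

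**Figure D3:**
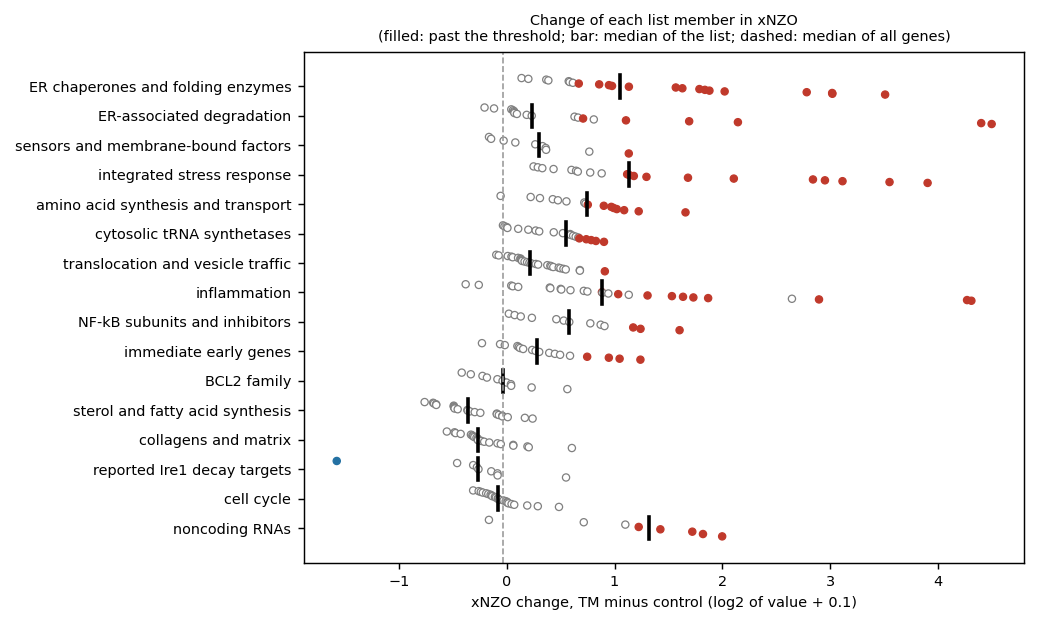
Change of each member of 16 gene lists (rows) in xNZO, as TM minus control on the log2(value + 0.1) scale, filled red where induced and blue where lowered. Black bars give the list medians, from 1.32 for noncoding RNAs and 1.13 for the integrated stress response to -0.36 for sterol and fatty acid synthesis, and the dashed line the median of all genes, -0.036.

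The response of the cross was then compared with those of its parents. Each change was taken within its own table, and the changes of the 3 genotypes were fitted together in 15 libraries. NZO TM replicate 3 stood apart from its group (r = 0.968 and 0.965 with the other 2 NZO TM libraries, which had r = 0.993 with each other), and the median SD of a gene was 0.262 (log2) in that group, against 0.081 to 0.195 in the other 5 groups. Over 12585 genes, the change in xNZO correlated with that in B6 at r = 0.73, with that in NZO at r = 0.708 and with the mean of both at r = 0.768. These are descriptions across genes of the same libraries, and genes are not replicates. No gene passed an adjusted p of 0.01 for xNZO against B6, xNZO against NZO, xNZO against the mean of the parents or NZO against B6 (0% of 12585 genes each, limma), with 127, 241, 156 and 228 genes at an unadjusted p under 0.05. Each count is smaller than this p would give with no difference at all, so the absence of calls does not show that the responses were alike. Without control replicate 3 of xNZO and TM replicate 3 of NZO the limma counts at that p were 356, 1448, 483 and 2138. The count test of edgeR on the same libraries also called none in any of the 4. Of the 180 genes induced in xNZO, 172 rose by at least 1.5 fold in both B6 and NZO, 173 in B6 and 178 in NZO. Of all 12585 genes, 622 rose by that much in both, 923 in B6 and 1055 in NZO. All 19 lowered genes fell by that much in B6 and 18 in NZO, against 835 and 1016 of all genes.

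The changes of ER chaperones had like medians in the 3 genotypes. The median of the list was 1.05 (log2) in xNZO, 1.13 in B6 and 1.08 in NZO. Hspa5 rose by 3.02 in xNZO, 2.85 in B6 and 3.06 in NZO, and the difference was 0.17 from B6 (95% interval -0.32 to 0.65) and -0.040 from NZO (-0.50 to 0.42). In 14 of the 22 members the change in xNZO lay between those of the parents, which was so for 38.1% of all genes. The count rests on single libraries, since it fell to 5 of 22 without control replicate 1 of xNZO (28.1% of all genes). Over the alternatives it ran from 5 to 16. Herpud1 rose by 4.40 in xNZO, between 3.96 in B6 and 4.70 in NZO.

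The integrated stress response had a median change between those of the parents. The median was 0.82 in B6, 1.13 in xNZO and 1.24 in NZO. Of 20 members, 12 were between the parents (38.1% of all genes), 6 above both (26.4%) and 2 below both (35.5%). Without TM replicate 3 of NZO, 7 of 20 were between (39.6% of all genes), and without that library and control replicate 3 of xNZO, 11 of 20 were (50.6% of all genes). Trib3 rose by 1.94 in B6, 3.11 in xNZO and 3.68 in NZO. Its difference from B6 was 1.17 (95% interval 0.57 to 1.77, limma adjusted p = 0.9999) and that from NZO -0.57 (-1.13 to 0.0020). Within the founder tables, Trib3 had controls of 53.2 and 56.6 in B6 and of 14.3 and 13.8 in NZO, and TM libraries of 232.9 and 191.5 in B6 and of 161.3, 163 and 225.4 in NZO, so the parents differed in the control libraries. With TM they overlapped through TM replicate 3 of NZO, the library that stood apart, and the other NZO libraries lay below both of B6. Ddit3 rose by 3.21 in B6, 3.90 in xNZO and 4.33 in NZO, and Gadd45a by 2.87, 3.55 and 3.96. The larger changes of NZO again went with lower controls. Ddit3 had 68.5 and 65.9 in B6 controls and 26.3 and 29.1 in those of NZO. With TM it had 569.2 and 682.7 in B6 and 466.7, 429.6 and 863.9 in NZO. Gadd45a had 15.3 and 15.1 in B6 controls and 4.55 and 4.2 in those of NZO. With TM it had 110.5 and 113 in B6 and 58.9, 52.7 and 107.4 in NZO. For Ddit3 the difference from either parent had an interval that held 0 (-0.051 to 1.43 from B6 and -1.13 to 0.28 from NZO). In amino acid synthesis and transport, 13 of 16 members were between the parents (38.1% of all genes) and none below both (35.5% of all genes). The medians were 0.54 in B6, 0.74 in xNZO and 0.89 in NZO. Without control replicate 1 of xNZO 8 were between (28.1% of all genes), and without control replicate 3 of xNZO 2 were below both (31.8% of all genes).

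Most genes of the inflammation list had a smaller change in the cross than in either parent. Part of this list was taken from genes that the study singled out in the founders, where it placed B6 and NZO in its high inflammation group. The count below is thus not independent of the parents, and the part of that choice in it was not tested. The change in xNZO was below both parents for 24 of 26 members, against 35.5% of all genes. The list median was 0.89 in xNZO, 1.36 in B6 and 1.47 in NZO. The same was seen for 11 of 13 members of the list of NF-kB subunits and inhibitors (medians 0.58, 0.79 and 1.19). The study also reported variation among founder strains for Nfkb1, Nfkb2, Rela and Relb, so this count is not independent of the parents either. The counts were 24 of 26 and 12 of 13 without control replicate 3 of xNZO and TM replicate 3 of NZO, against 28.4% of all genes. Over the alternatives that kept all members they ran from 21 to 26 for inflammation and from 9 to 12 for NF-kB, and 20 of 22 inflammation genes with a mean of at least 2 were below both. Cxcl1 was raised by 4.40 in B6, 4.14 in NZO and 2.90 in xNZO. In the founder tables its values were 0.644 and 0.506 in B6 controls, 13.4 and 14.8 in B6 with TM, 3.14 and 2.69 in NZO controls and 56.3, 56.4 and 47.1 in NZO with TM. In xNZO the controls, at 1.07 to 2.06, were above those of B6, and the TM libraries, at 12.1 to 13.2, were just below. Against NZO both were lower. Founders and crosses were scaled separately, so levels are only roughly comparable between them. Taken one library at a time against the mean control of its genotype, the change was 2.84 to 2.97 in the 3 xNZO TM libraries, below the lowest of B6 (4.33) and of NZO (3.97). These ranges, like those of Lif below, leave out the spread of the controls, because every TM library of a genotype shared the same control mean. For Cxcl1 the difference was -1.50 ± 0.32 from B6 (95% interval -2.20 to -0.81) and -1.25 ± 0.31 from NZO (-1.91 to -0.59), and it did not pass over all genes (limma adjusted p = 0.9999 for both). The B6 controls of Cxcl1 held 14 and 5 reads, and with a pseudocount of 1 the difference of Cxcl1 from B6 was -0.89. Without the 2 libraries named above the differences were -1.77 ± 0.21 and -1.603 ± 0.21, and both passed (limma adjusted p = 0.0071 and 0.0081). Lif was raised by 1.87 in xNZO, 2.47 in B6 and 2.72 in NZO, a difference of -0.60 (-0.92 to -0.28) and -0.85 (-1.16 to -0.55), and its xNZO libraries (1.76 to 1.97) did not overlap those of B6 (2.35 to 2.58) or NZO (2.69 to 2.74). Tnfaip3 was raised by 1.603, against 1.89 in B6 and 2.51 in NZO, and Nfkbia by 1.17, against 1.60 and 1.77. Cxcl2 was raised by 4.31, against 5.96 and 5.29, and Ccl20 by 4.27, against 5.54 and 5.16, with few control reads in each genotype. Mmp9, a matrix metalloproteinase named after its values were seen, had in xNZO 6.14, 7.28 and 4.84 in control and 4.7, 3.76 and 5.47 with TM (-0.38 ± 0.22), and its change was 0.81 in B6 and 1.54 in NZO. The xNZO groups of Mmp9 overlapped. With all libraries, none of these further genes passed for a difference from either parent (limma adjusted p from 0.12 to 0.9999).

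**Figure D4:**
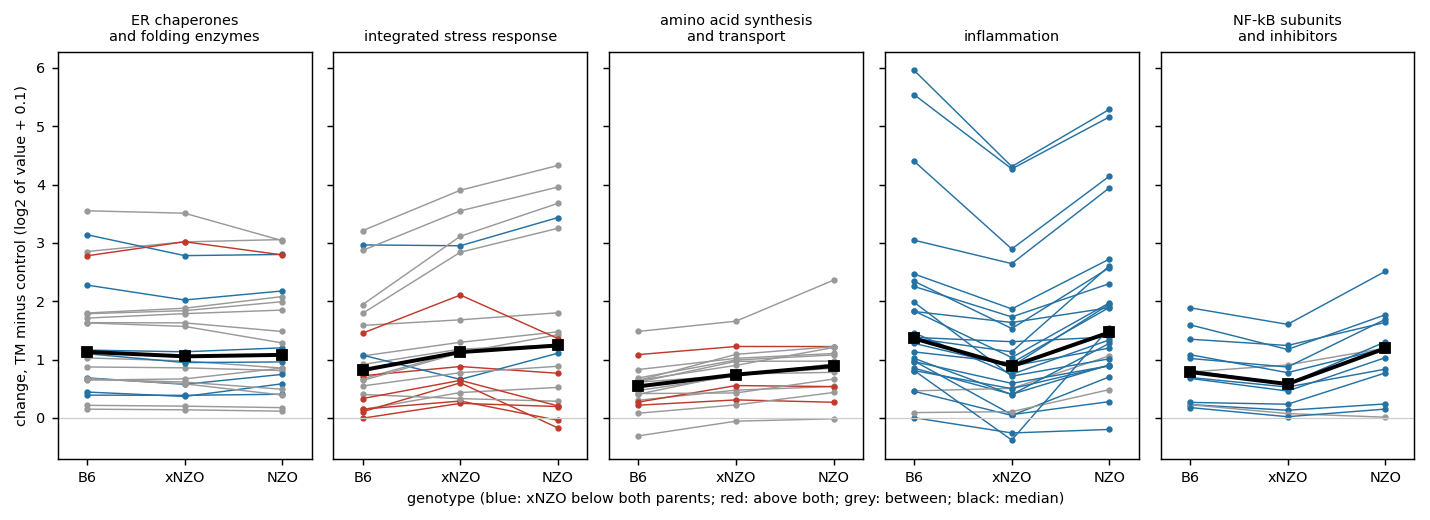
Change with TM (log2(value + 0.1) scale) of each member of 5 lists in B6, xNZO and NZO, joined by a line, in blue where xNZO was below both parents, red where it was above both and grey where it was between, with list medians in black. In the inflammation panel 24 of 26 lines are blue, and in the amino acid panel none is.

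**Figure D5:**
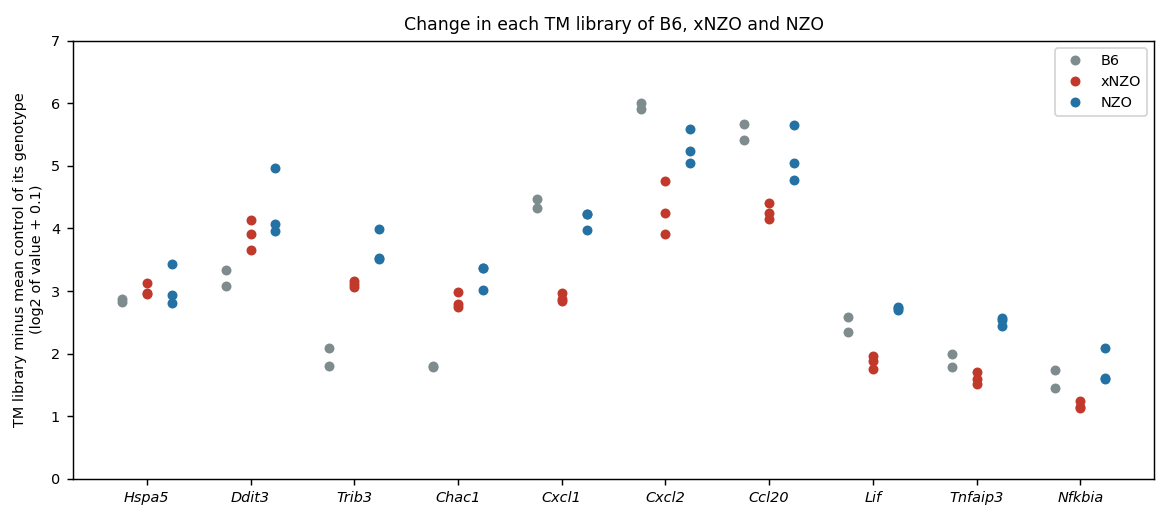
Change in each TM library against the mean control of its own genotype (log2(value + 0.1) scale) for 10 genes, with 2 libraries of B6, 3 of xNZO and 3 of NZO. The xNZO libraries of Cxcl1 lie at 2.84 to 2.97, below B6 (4.33 to 4.47) and NZO (3.97 to 4.23), while those of Trib3 (3.06 to 3.17) lie between B6 (1.80 to 2.08) and NZO (3.51 to 4.00).

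The other crosses of a B6 mother, x129, xCAST, xNOD and xWSB, were normalized together with xNZO, so their levels can be compared. Each is named for the strain of its father. Their 22 libraries were fitted together with those of xNZO, 28 libraries in all. Each cross had control and TM replicates 1 to 3, except that xCAST lacked control replicate 1 and xNOD lacked TM replicate 3. No gene passed an adjusted p of 0.01 for the change in xNZO against the mean change of the other crosses (0% of 12803 genes, limma), with 340 genes at an unadjusted p under 0.05, and edgeR called none. The 340 are fewer than this p would give with no difference, so the absence of calls does not show that the crosses responded alike. The median change of the inflammation list was 0.89 (log2) in xNZO, within the range of the other crosses, which had 1.79 in xCAST, 1.22 in x129, 0.96 in xNOD and 0.39 in xWSB. The median of B6, 1.36, was above those of x129, xNOD and xWSB too and below that of xCAST. A list median below that of B6 was thus not particular to xNZO. Whether founders and crosses differed as sets in this list was not tested. Cxcl1 with TM reached 12.1 to 13.2 in xNZO, 14.3 to 19.1 in xNOD, 16.8 to 37.1 in xWSB, 25.4 to 28.7 in x129 and 45.7 to 67.6 in xCAST. By level, the TM libraries of xNZO were thus the lowest of the 5 crosses, but by change xNZO (2.90) was above xWSB (1.58) and below xNOD (3.71), x129 (3.93) and xCAST (5.90). The controls of xWSB, at 6.81 to 9.96, were higher than those of the others (0.637 to 2.09). Derl3 with TM reached 10.6 to 14.5 in xNZO, which overlapped x129 (7.21 to 11.1) and lay above xNOD (4.86 to 8.86), xCAST (4.98 to 8.3) and xWSB (1.28 to 2.14). Its change differed from the mean of the other crosses by 1.31 ± 0.36 and did not pass (limma adjusted p = 0.9989). Hspa5 with TM reached 4867 to 5461 in xNZO, which overlapped x129 (4343 to 5366), xCAST (4987 to 6473) and xWSB (5060 to 6190) and lay above xNOD (4097 to 4828). Its change differed from the mean of the other crosses by 0.14 (95% interval -0.14 to 0.42).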

How the data were processed

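RNA was measured in MEFs by single-end RNA-seq. Per the labels and the study's methods, the authors trimmed reads, aligned them with TopHat 1.4.1 to strain-specific versions of GRCm38/mm10, left out libraries that clustered away from their condition, and scaled the rest with edgeR's TMM, the founders and the crosses separately. The deposited signal values are labelled FPKM, but every value was a whole multiple of 1 step per library (100% within a tolerance of 0.05), as reads per gene scaled by library are, and they were not divided by length. The design had assumed a normalized value, so the planned test on a log scale was kept. The 3 lines that name no gene held 17.5% to 22.1% of the reads of an xNZO library and were dropped, which left 12803 genes.

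Genes that reached 0.5 in 2 or more libraries were tested with limma 3.58.1 in R 4.3.3 on log2(value + 0.1), with Benjamini-Hochberg adjustment over all genes tested. Induced or lowered means 1.5 fold or more in that direction at an adjusted p under 0.01. Differences between genotypes were contrasts over 15 libraries, or 28 for the crosses. edgeR 4.0.16 and DESeq2 1.42.0 on the recovered reads were alternatives, beside other pseudocounts, filters, scalings, weights and libraries left out, and the tests were tested on simulated data. Named were the 10 largest rises and 10 largest falls with a mean of at least 5 and no overlap, the 4 largest called in each list, and a fixed set of UPR, chemokine and matrix genes. Members and lists were chosen with earlier results of these data known. Replicate numbers were not used to pair the libraries in the main tests. Some results are not reported here.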

Additional observations from a re-analysis of the deposited data

Results flagged for a closer look

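These differences in response between genotypes passed the test of the difference (adjusted p below 0.01) once control replicate 3 of xNZO and TM replicate 3 of NZO were left out, a choice made after seeing the data. None passed with limma or edgeR on all 15 libraries, but sample quality weights, which keep all 15 and give both libraries little weight, called each of them too. For Cxcl1, the change in xNZO differed from that in B6 by -1.77 (log2, limma adjusted p = 0.00714), from that in NZO by -1.6 (adjusted p = 0.00811) and from the mean of the parents by -1.69 (adjusted p = 0.00178). With all libraries these were -1.50, -1.25 and -1.38, and with edgeR without both libraries the adjusted p was 0.0351, 0.0102 and 0.00557. On separately scaled values, xNZO and B6 differed more in the controls of Cxcl1 than with TM, as given above. Mmp9 differed from NZO by -2.09 (limma adjusted p = 0.00811), against -1.92 with all libraries (adjusted p = 0.124). Errfi1, a feedback inhibitor of EGF receptor signaling, differed from NZO by -0.902 (limma adjusted p = 0.00811), against -0.695 with all libraries (adjusted p = 1.0). With edgeR without both libraries the adjusted p of Mmp9 and of Errfi1 was 0.0102, so neither passed there. Between the parents, Chac1, a glutathione-degrading target of ATF4, rose more in NZO than in B6 by 1.57 (limma adjusted p = 0.000177), and Trib3 by 1.58 (adjusted p = 8.86e-05), and edgeR called both (adjusted p = 0.000204 each). With all libraries their differences were 1.46 (limma adjusted p = 0.0947) and 1.74 (adjusted p = 0.137). As for Trib3, the parents differed in the control libraries of Chac1, with 48.9 and 46.4 in B6 and 20.8 and 16.9 in NZO. With TM, Chac1 had 165.8 and 165 in B6 and 194, 194.2 and 152.4 in NZO, which overlapped through TM replicate 3 of NZO. Groups held 2 or 3 libraries, so no library was tested as an outlier of its group.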

How the results depend on the processing

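Each induced and lowered count rests on all 6 libraries. Leaving out 1 library gave from 42 to 300 induced genes, namely 43, 56 and 42 without TM replicates 1, 2 and 3 and 88, 62 and 300 without control replicates 1, 2 and 3, and from 0 to 84 lowered genes, with 0 in 4 of the cases, 3 without control replicate 1 and 84 without control replicate 3. The 0 counts came with 2107 to 2612 genes at an unadjusted limma p under 0.05. Induced and lowered genes numbered 395 and 145 at an FDR of 5%, 67 and 1 with no trend in the prior variance, 563 and 333 with sample quality weights, 387 and 164 with DESeq2, and 335 and 154 in 1 fit over all 28 F1 libraries. A mean value of at least 2 gave 30 lowered genes. With a replicate block, 72 genes were induced and 1 lowered. After the mean of each group was subtracted from the log2 values, same-numbered control and TM libraries correlated at r = -0.0687, -0.0725 and 0.0489. Libraries with different numbers had r from -0.173 to 0.202. The labels give only a number, and so few libraries cannot show whether they were paired. Sample quality weights gave 2 genes for xNZO against B6, 24 against NZO, 4 against the mean of the parents and 17 for NZO against B6. Without both libraries that stood apart these were 1, 3, 1 and 2 with limma, and edgeR gave 1 for the mean of the parents and 2 for NZO against B6. The NZO minus B6 difference of Cxcl1 turned to 0.529 with a pseudocount of 1. Over named genes and alternatives, 771 tests of TM against control kept direction and call, 190 kept direction and lost the call, and 7 gained it. The cause of these moves was not tested. Depth limits Cxcl2, Ccl20 and Derl3, with 0 to 30 reads in an xNZO control library, and Cxcl1, with 69, 26 and 15 there and 14 and 5 in the B6 controls.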

Other observations

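Of the 180 induced genes, 103 were in none of the lists. Genes among the 10 with the largest rise are described here, picked after their values were seen. Fgf21, a hormone of fasting and stress, was close to the lowest level counted in control (0.0797, 0 and 0) and had 1.52, 1.62 and 1.12 with TM. Cass4, a scaffold of focal adhesions, had 0.771, 0.712 and 0.641 in control and 8.07, 8.47 and 8.89 with TM. Piga, which acts in the first step of GPI anchor synthesis, had 5.53, 5.7 and 6.05 in control and 40.1, 37.6 and 37.1 with TM. Nfil3, a bZIP factor, had 27.9, 28 and 21.9 in control and 119.9, 120.5 and 104.8 with TM. The groups did not overlap in these 4 genes, which held for all 180 induced genes. Every TM library was above every control in 16.4% of all genes tested. The transcription factors Hey2 and Snai2 rose by 2.87 and 1.61 (log2). Soat2, a cholesterol esterifying enzyme, rose by 2.03, Car6, a carbonic anhydrase, by 1.94, and 1810032O08Rik by 1.92.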
